A study of Arabidopsis thaliana with 8 samples.

Results

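The WUSCHEL-related homeobox (WOX) genes are a plant family of transcription factors named after WUSCHEL (WUS). Of the 15 WOX genes of Arabidopsis, 10 were followed here by their gene identifiers in the deposited table of 33199 genes, namely WUS, WOX1, WOX2, WOX3, WOX4, WOX5, WOX9, WOX11, WOX13 and WOX14. The other 5 (WOX6, WOX7, WOX8, WOX10 and WOX12) were read beside them. The samples were 4 shoot and 4 root samples of Arabidopsis accession Col-0, with no treatment named other than the tissue itself, and each was sequenced as a messenger RNA library. The growth text attached to the samples describes another species, so the age of the plants, their medium and the cut between shoot and root are not known here. Separate plants are not stated for the 4 samples of either tissue, so p-values measure only how far these samples spread, and that spread may be technical.

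WOX proteins bind DNA through a homeodomain, and several of them keep small pools of stem cells undifferentiated. The family is divided by descent into a WUS clade, an intermediate clade and an ancient clade. WUS acts in the organising centre of the shoot meristem and WOX5 in the quiescent centre of the root, while WOX4 acts in the cambium, which forms the vascular tissue. Secreted CLE peptides and their receptor kinases limit or maintain the activity of several of these genes. Proteins of the WUS clade carry a short WUS box, through which WUS binds the corepressor TOPLESS.

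The DNA that encodes the third helix of the homeodomain, the helix that contacts DNA, is shown for 9 of the 10 genes and for the close copies of 3 of them, because it is a stretch that all of them share and that differs between the clades in the codon after the capitals. Sequences are from the RefSeq assembly TAIR10.1, in coding direction, and all lie in coding exons. In that assembly the coordinates of all 15 WOX genes were the same as in the deposited table (TAIR10), as were those of 99.95% of the 32548 genes shared with it. Capitals mark 4 codons, of tryptophan, phenylalanine, glutamine and asparagine, which all 12 sequences share as codons for these residues.
WUS (chr2:7810390-7810425, - strand): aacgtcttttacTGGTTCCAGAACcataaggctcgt
WOX1 (chr3:6162688-6162723, - strand): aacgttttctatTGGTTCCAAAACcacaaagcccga
WOX2 (chr5:23934421-23934456, - strand): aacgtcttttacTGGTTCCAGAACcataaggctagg
WOX3 (chr2:12262268-12262303, + strand): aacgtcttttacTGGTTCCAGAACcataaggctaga
WOX4 (chr1:17237300-17237335, - strand): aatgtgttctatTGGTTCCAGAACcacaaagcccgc
WOX5 (chr3:3527807-3527842, + strand): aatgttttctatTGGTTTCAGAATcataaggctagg
WOX7 (chr5:1734703-1734738, + strand): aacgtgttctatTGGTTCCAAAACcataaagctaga
WOX9 (chr2:14343183-14343218, - strand): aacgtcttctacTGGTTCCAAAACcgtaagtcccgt
WOX11 (chr3:891899-891934, - strand): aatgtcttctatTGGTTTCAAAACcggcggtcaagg
WOX12 (chr5:5882375-5882410, - strand): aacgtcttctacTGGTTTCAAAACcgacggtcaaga
WOX14 (chr1:7183558-7183593, + strand): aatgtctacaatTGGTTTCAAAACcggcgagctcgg
WOX10 (chr1:7184942-7184977, + strand): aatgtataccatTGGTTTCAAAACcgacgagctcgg

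The codon after the capitals encodes histidine in the 7 sequences shown from the WUS clade and arginine in the 5 shown from the intermediate and ancient clades. A WUS box, searched in the translated coding sequences as threonine, leucine, any residue, leucine, phenylalanine and proline, was found once in 7 of the 8 genes of the WUS clade and in 0 of the other 7. WOX7, whose protein of 122 residues is the shortest of the family, held no match. The boxes of the 6 WUS clade genes followed here are shown because they set this clade apart, with the 6 codons of the search in capitals.
WUS (chr2:7809196-7809219, - strand): ACGCTTCCTCTCTTCCCTatgcac
WOX1 (chr3:6161242-6161265, - strand): ACACTTGAGCTGTTTCCActgaga
WOX2 (chr5:23933579-23933602, - strand): ACACTCCCTCTTTTTCCTcttcag
WOX3 (chr2:12263227-12263250, + strand): ACCCTGGAACTTTTCCCAatctca
WOX4 (chr1:17236918-17236941, - strand): ACCCTCGAGCTTTTTCCTctccat
WOX5 (chr3:3528072-3528095, + strand): ACATTACAACTCTTTCCGgtgaat

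Across a window of 65 residues that ends just after this helix and spans the homeodomain, the closest pairs of the family were WOX11 with WOX12 (92.3% identical residues), WOX5 with WOX7 (90.8%), WOX8 with WOX9 (86.2%) and WOX10 with WOX14 (81.5%). WOX10 and WOX14 are also neighbours on chromosome 1, 428 bases apart and on the same strand. None of the 50-base windows in the exons of the 15 genes occurred a second time in the genome, in the family or elsewhere. Of the 10 genes, WOX13 alone overlapped another gene model in the table, by 78 bases of PTF2 on the opposite strand. How strand was treated in counting is not given, so reads in that stretch may come from either gene. PTF2 stood at similar levels in both tissues (means of 3.62 FPKM in shoot and 3.28 in root).

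The libraries held between 10044638 and 11662309 reads assigned to genes in shoot and between 9857791 and 12460762 in root. FPKM, the deposited unit, is reads divided by the length of the gene and by a library size that the authors scaled. That size was 0.770 to 0.865 times the total of assigned reads for shoot libraries and 1.18 to 1.25 times that total for root libraries. Whole reads could be recovered from the FPKM values. Leaf and root marker genes bore out the labels: the 5 leaf markers summed to 49554 to 63526 FPKM in shoot and 49.8 to 348 in root, and the 6 root markers to 3.38 to 10.4 in shoot and 903 to 1029.6 in root. Of 5 markers of the root apex and root cap, PLT1, PLT2, SMB and BRN2 had 0 reads in shoot, and all 5 were read in root, where they summed to 16.4 to 21.3 FPKM. The 5 flower markers summed to 1.32 to 2.46 FPKM in shoot and 1.01 to 1.80 in root, mostly from PI, with AP1 at 0 reads in shoot and AG at 0 reads in root. The 4 embryo markers summed to at most 0.247 FPKM in any library. In bulk tissue, fewer cells that express a gene and less RNA per cell cannot be told apart.

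WOX genes were transcribed at low levels, and different members were high in the 2 tissues. WOX13, WOX4 and WOX5 were read in all 8 libraries, WOX1 in shoot alone, and WOX5, WOX11 and WOX14 mainly in root. WUS had no read in any library. Together the 10 genes gave 2228 reads over the 8 libraries, from 0 for WUS to 899 for WOX13. Even WOX13, with a mean of 7.08 FPKM over all libraries, lay under the median of 9.38 FPKM of the genes tested.

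**Figure D1:**
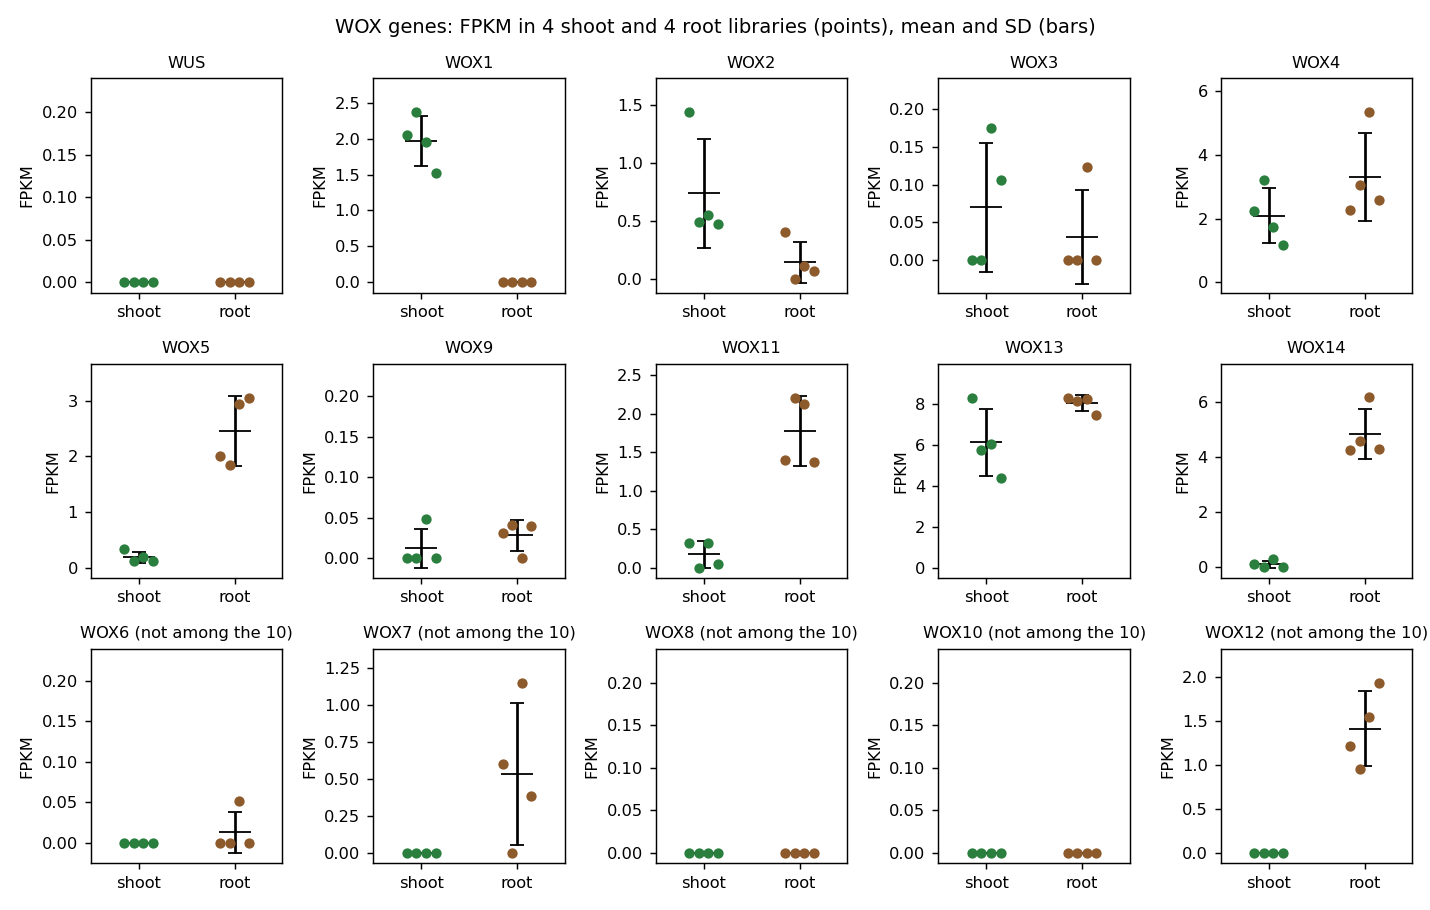
FPKM (vertical axis, its scale set for each gene) of the 15 WOX genes in 4 shoot and 4 root libraries, one point per library in replicate order, with bars for the mean and SD, which can reach below 0 where only some libraries held reads. WOX1 is at 0 in all 4 root libraries, WOX14 at 4.22 to 6.15 there, and WOX13 is above 4 in every library.

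A test over all genes compared root with shoot. Limma, a linear model with a variance estimate shared across genes, was fitted to log2(FPKM + 0.5) of 20314 genes that reached 0.5 FPKM in 4 or more libraries, and a gene was called when its adjusted p lay under 0.05. Fold changes are root over shoot on that scale, which understates the change of low genes. Of the 10 WOX genes, 3 were called higher in root (WOX5, WOX11 and WOX14), 1 was called higher in shoot (WOX1), WOX4 and WOX13 did not pass the test, and WUS, WOX2, WOX3 and WOX9 fell under the filter. Over all genes tested, 69.6% were called, 37.6% higher in root and 32.0% higher in shoot, so a call was the more common outcome for any gene. WOX1, WOX5, WOX11 and WOX14, and WOX12 beside them, passed the filter only through the tissue in which they were high and so had to differ, which leaves their number no support for a pattern. With library totals alone as the scaling, 79.4% of genes were called (60.0% higher in root, 19.5% in shoot), and the median gene moved to a log2 fold change of 0.59 from 0.07. There 5 WOX genes were higher in root, WOX4 and WOX13 being added, and 1 higher in shoot. With no filter on low values, 3 WOX genes were higher in root, where 32.6% of all genes were, and 2 higher in shoot, where 26.8% were.

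WOX14 was the most abundant of the WOX genes called higher in root. It is a gene of the ancient clade that acts in vascular tissue, where it promotes gibberellin synthesis (AT1G20700, chromosome 1, 7182558 to 7184056). In root libraries 1 to 4 it stood at 4.22, 4.55, 6.15 and 4.29 FPKM, and in shoot libraries 1 to 4 at 0.0768, 0, 0.267 and 0. All 4 root libraries lay above all 4 shoot libraries, with root library 3 the highest. Of all genes tested, 64.8% had no overlap between the tissues, 34.7% with root and 30.1% with shoot the higher. The log2 fold change was 3.19 (SE 0.19, limma adjusted p = 9.25e-08). By reads, 389 in root against 5 in shoot gave a ratio of 50.6 per unit of scaled library size, with a 95% counting interval of 21.5 to 157. Its tandem neighbour WOX10 had 0 reads in all 8 libraries.

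WOX5 marks the quiescent centre of the root, whose cells it helps to keep from dividing (AT3G11260, chromosome 3, 3527280 to 3528440). Its FPKM values were 2.01, 1.84, 2.94 and 3.06 in root libraries 1 to 4 and 0.328, 0.119, 0.190 and 0.115 in shoot libraries 1 to 4. Each shoot library held a signal, but of only 1 to 3 reads, and the tissues did not overlap. The log2 fold change was 2.09 (SE 0.19, limma adjusted p = 3.15e-06), and the ratio of 139 root to 7 shoot reads was 12.9 (95% counting interval 6.1 to 32.7). The shoot libraries held WOX5 at 4.66% to 13.3% of its root mean, whereas the 6 root markers together stood there at 0.350% to 1.08% of theirs and the root apex markers at 0% to 0.872%. The highest WOX5 value and the highest root marker sum among shoot libraries were both in library 1. Whether root tissue had a part in the shoot reads was not tested.

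WOX7, the close copy of WOX5 within the WUS clade and a regulator of lateral root formation, had 0 reads in shoot and 4, 0, 7 and 2 reads in root libraries 1 to 4. These reads correspond to 0.596, 0, 1.15 and 0.384 FPKM. It therefore overlapped between the tissues in 1 library, and an exact two-sided permutation test did not separate them (p = 0.143, n = 4 and 4). With no filter on low values, limma gave it a log2 fold change of 0.92 (adjusted p = 0.0237), and 59.3% of genes were called in that fit. WOX5 was the more abundant of the pair in every root library.

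WOX11 and WOX12 act together in the founder cells from which adventitious roots arise, and both were high in root. WOX11 (AT3G03660, chromosome 3, 889166 to 892229) stood at 1.40, 2.21, 2.13 and 1.38 FPKM in root libraries 1 to 4. In shoot libraries 1 to 4 it stood at 0.321, 0, 0.318 and 0.0480 FPKM, which is 7, 0, 8 and 1 reads. The tissues did not overlap, and the log2 fold change was 1.78 (SE 0.23, limma adjusted p = 3.97e-05). WOX12 stood at 1.21, 0.957, 1.55 and 1.94 FPKM in root libraries 1 to 4 and had 0 reads in all 4 shoot libraries. Its 100 root reads put it at least 21.7-fold higher in root against a floor of 3 reads over the 4 shoot libraries (log2 fold change 1.91, SE 0.19, limma adjusted p = 4.33e-06). Shoot reads were seen for WOX11 and not for WOX12. Over the root libraries the 2 genes did not keep 1 order: WOX11 exceeded WOX12 in libraries 1, 2 and 3 and lay under it in library 4.

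WOX1 was the gene called higher in shoot. It drives the outgrowth of the leaf blade together with WOX3 (AT3G18010, chromosome 3, 6160733 to 6163453). The shoot libraries 1 to 4 held it at 2.04, 2.36, 1.95 and 1.52 FPKM, from 22 to 34 reads each, and all 4 root libraries at 0 reads. Its 120 shoot reads put it at least 61.6-fold higher in shoot against a floor of 3 reads over the 4 root libraries (log2 fold change -2.29, SE 0.16, limma adjusted p = 2.66e-07). Of the 33199 genes in the table, 238 (0.717%) had reads in every shoot library and none in any root library.

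WOX3 (AT2G28610, chromosome 2, 12262013 to 12263595), known as PRESSED FLOWER and a partner of WOX1 in the leaf margin, was near the detection limit. It had 2 reads in shoot library 3, 1 in shoot library 4, 2 in root library 3 and 0 in the others. A value of 3 reads in 1 library would be 0.167 to 0.327 FPKM for this gene, and no library reached that. An exact two-sided permutation test on FPKM gave p = 0.714 (n = 4 and 4), in a design that allows no p under 0.0286.

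WOX2, which specifies the apical part of the embryo together with other WOX genes, had 33 reads in shoot and 11 in root (AT5G59340, chromosome 5, 23933338 to 23935050). It stood at 1.44, 0.490, 0.548 and 0.473 FPKM in shoot libraries 1 to 4 and at 0.401, 0, 0.110 and 0.0646 in root libraries 1 to 4. On the deposited scale every shoot library lay above every root library, and the exact two-sided permutation test reached the smallest p it allows (p = 0.0286, n = 4 and 4). With library totals as the scaling the tissues overlapped and the same exact test gave p = 0.114. With no filter, limma gave a log2 fold change of -0.91 (adjusted p = 0.0125). Of its 11 root reads, 8 were in root library 1, which also held the highest sum of leaf markers. In that library WOX2 stood at 54.3% of its shoot mean and the leaf markers at 0.608% of theirs. Whether shoot tissue had a part in the root reads was not tested.

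WOX13 was the most abundant member in every one of the 8 libraries (AT4G35550, chromosome 4, 16875521 to 16877451). It belongs to the ancient clade, is widely expressed and acts in the fruit replum. It stood at 8.31, 5.78, 6.06 and 4.36 FPKM in shoot libraries 1 to 4 and at 8.32, 8.15, 8.24 and 7.45 in root libraries 1 to 4. Shoot library 1 reached the level of root, and the other 3 shoot libraries lay under all 4 root libraries. The log2 fold change of 0.40 (SE 0.17) did not pass (limma adjusted p = 0.055), but it lay close to the threshold. Without shoot library 1 it was called higher in root (0.54, adjusted p = 0.00641), with adjusted p-values of 0.00641 to 0.141 over the fits that left out 1 library. With library totals it was also called (0.91, adjusted p = 8.85e-04), where the median gene stood at 0.59.

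WOX4, the cambium regulator downstream of the receptor PXY, was read in every library (AT1G46480, chromosome 1, 17236524 to 17238185). Shoot libraries 1 to 4 held it at 2.23, 3.20, 1.73 and 1.17 FPKM, and root libraries 1 to 4 at 2.26, 3.03, 5.32 and 2.57. The ranges overlapped, with root library 3 the highest of all and shoot library 4 the lowest. The log2 fold change of 0.55 (SE 0.29) did not pass (limma adjusted p = 0.11). It was called higher in root without shoot library 2 (0.75, adjusted p = 0.0364) and with library totals (1.01, adjusted p = 0.0062). In the other fits that left out 1 library the adjusted p was 0.0728 to 0.304.

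WUS (AT2G17950, chromosome 2, 7808871 to 7810811) had 0 reads in all 8 libraries, as had 7788 genes (23.5%) of the table. For WUS, 3 reads in 1 library would be 0.154 to 0.30 FPKM, and 3 reads over the 4 shoot libraries 0.0687 FPKM, so lower levels were not detectable at this depth. STM, a homeobox gene of the whole shoot meristem, was read in each shoot library (0.921 to 1.25 FPKM, 65 reads in all) and had 0 reads in root. WOX9 (AT2G33880, chromosome 2, 14341355 to 14343796), which sustains growth of the seedling meristem, had 1 read in each of 4 libraries, shoot library 3 and root libraries 1, 2 and 4. WOX8, its close copy and a gene of the basal embryo, had 0 reads in all 8 libraries. WOX6, known from ovules, had 1 read, in root library 3.

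**Figure D2:**
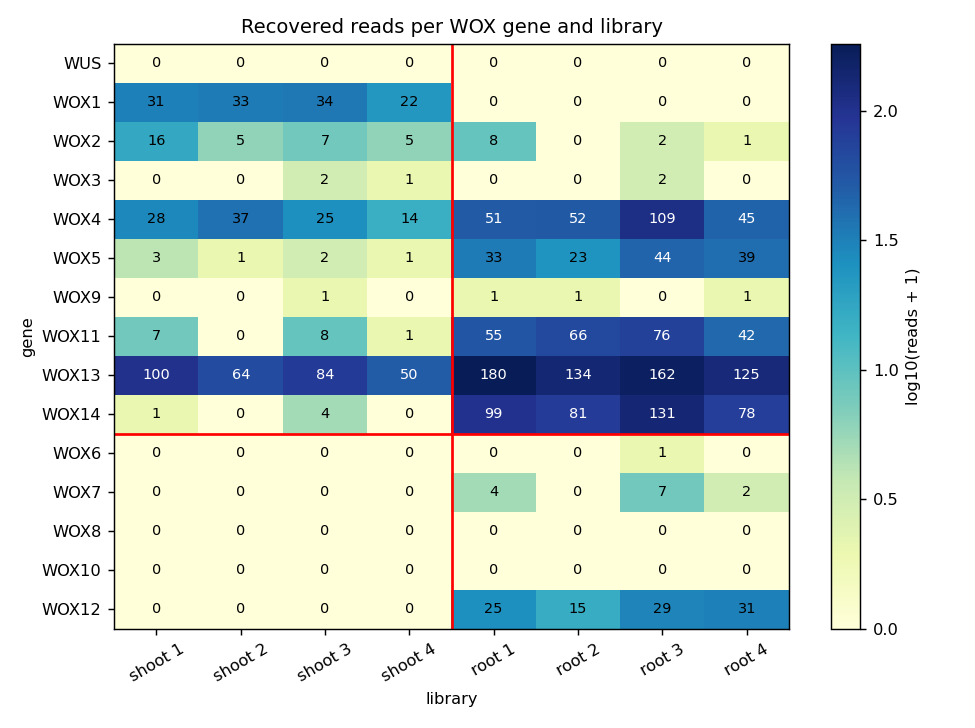
Recovered reads (numbers in the cells, shaded by log10 of reads + 1) for each WOX gene (rows) in each library (columns), with red lines between shoot and root and between the 10 genes followed and the other 5. WOX13 has 50 to 180 reads in every library, whereas WUS, WOX8 and WOX10 have 0 throughout.

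FPKM is per length, so levels of different members can be set in order within a tissue, given the deposited gene lengths. WOX11 had more root reads than WOX5 (239 and 139) but a longer deposited length (2513 and 1052 bases). In shoot the order of mean FPKM was WOX13 (6.13 ± 1.64, SD, n = 4), WOX4 (2.08 ± 0.863), WOX1 (1.97 ± 0.347) and WOX2 (0.738 ± 0.471), followed by WOX5, WOX11, WOX14, WOX3 and WOX9 at under 0.2. WOX4 and WOX1 did not differ beyond their spread, WOX4 being the higher in 2 of 4 libraries, and neither did neighbours from WOX5 downward. In root the order was WOX13 (8.04 ± 0.401), WOX14 (4.80 ± 0.910), WOX4 (3.30 ± 1.39), WOX5 (2.46 ± 0.627), WOX11 (1.78 ± 0.452) and WOX12 (1.41 ± 0.425). Only WOX13 stood clear of its neighbour there. The ranges of WOX14 and WOX4 overlapped, although WOX14 was the higher in 4 of 4 libraries, and from WOX4 down to WOX12 each gene exceeded the next in 3 of 4.

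The make-up of the family's transcripts differed between the tissues. WOX13 took 53.6% ± 3.68 of the summed FPKM of the 15 genes in shoot and 36.2% ± 4.92 in root (SD, n = 4). WOX1 took 17.6% ± 2.74 in shoot, and WOX14 took 0.721% ± 1.12 there and 21.2% ± 0.922 in root. WOX4 took 18.1% ± 5.82 in shoot and 14.2% ± 3.60 in root. The summed FPKM was 11.4 ± 2.86 in shoot and 22.5 ± 3.495 in root, a ratio of 1.97, and the exact two-sided permutation test reached its smallest p (p = 0.0286, n = 4 and 4). Root libraries 1 to 4 summed to 20.5, 20.8, 27.8 and 21.2 FPKM. Shoot libraries 1 to 4 summed to 14.8, 11.95, 11.3 and 7.80 FPKM, with no overlap. Among all genes tested, 64.8% had no overlap either, 34.7% with root the higher. WOX14, WOX5, WOX11 and WOX12 had means of 4.80, 2.46, 1.78 and 1.41 FPKM in root and 0.0858, 0.188, 0.172 and 0 in shoot. WOX1, WOX2 and WOX3 had the higher mean in shoot. Without scaling, the 15 genes held 587 reads in shoot and 1755 in root, so the size of the ratio depends on the scaling.

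**Figure D3:**
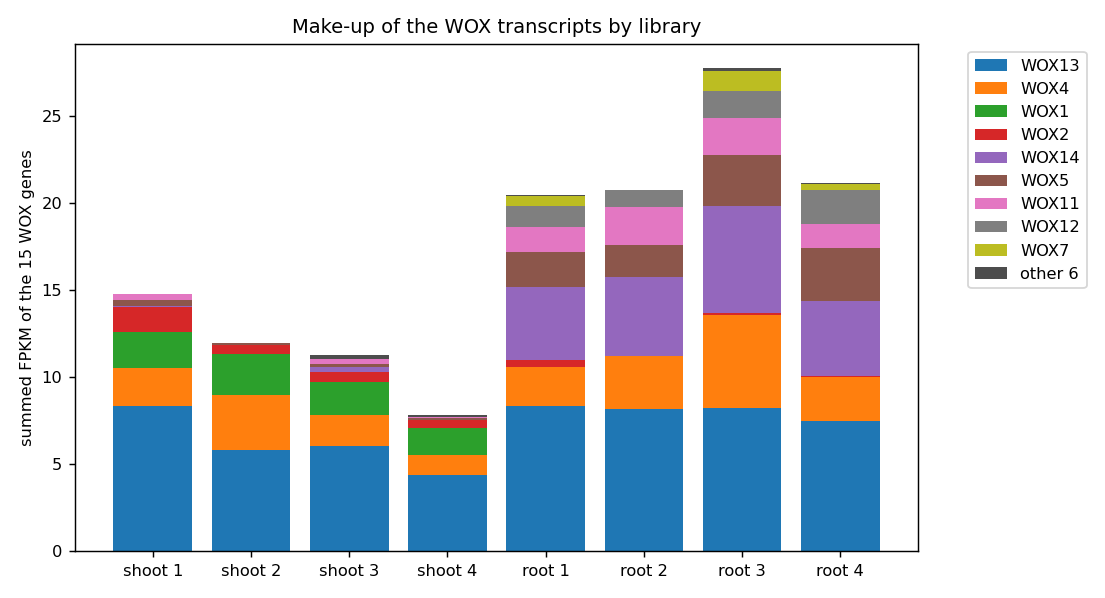
Summed FPKM of the 15 WOX genes (vertical axis) in each library, stacked by gene, with the 6 lowest genes joined as other 6. WOX13, WOX4, WOX1 and WOX2 make up most of each shoot bar, while WOX14, WOX5, WOX11 and WOX12 are added in each root bar.

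Genes known to act with the WOX genes were read from lists of 59 genes in all. Of these, 56 were tested, 21 were called higher in root, 17 higher in shoot and 18 did not pass, with a median log2 fold change of 0.16 against 0.07 over all genes tested. The share called is near the 69.6% of all genes, and 10 of the 56 passed the filter through 1 tissue alone. With library totals, 35 of 57 were called higher in root and 10 higher in shoot (median 0.64, against 0.59 over all genes).

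Among the CLE peptides, CLV3, which restricts WUS, and CLE40, which acts on the root tip, had 0 reads in all 8 libraries. CLE41 and CLE44 encode the peptide TDIF, which acts through the receptor PXY upstream of WOX4. CLE41 stood at 6.54 ± 1.02 FPKM in shoot against 6.97 ± 1.53 in root (log2 fold change 0.07, SE 0.16, limma adjusted p = 0.697). CLE44 and CLE42 had log2 fold changes of 0.17 and 0.21 and did not pass either. CLE44 shares 492 bases with another model on its strand, PBL24, which had 25 reads in all, so its reads are uncertain. With library totals CLE41 (0.59, adjusted p = 0.00906) and CLE44 (0.53, adjusted p = 0.0376) were called, at about the median of all genes. PXY itself stood at 7.02 ± 0.754 FPKM in shoot against 5.93 ± 1.01 in root (log2 fold change -0.23, SE 0.15, limma adjusted p = 0.173), and with library totals its sign was the opposite (0.28), again without a call. The FPKM of PXY was 3.97 ± 2.02 times that of WOX4 in shoot libraries and 1.99 ± 0.768 times in root libraries.

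Of the 9 receptors and coreceptors, 4 were called higher in shoot, where 32.0% of all genes were, and 2 higher in root, where 37.6% were. PXY, CLV2 and CRN did not pass. Under library totals 3 were called higher in shoot (19.5% of all genes) and 4 higher in root (60.0%). There CLV2 (0.53, limma adjusted p = 0.00428) and CRN (0.92, limma adjusted p = 0.00172) were added for root. BAM1 and BAM3, receptor kinases related to CLV1, were higher in root: BAM1 at 17.7 ± 1.63 FPKM in shoot against 30.1 ± 2.03 in root (log2 fold change 0.75, SE 0.10, limma adjusted p = 3.74e-05), and BAM3 at 10.1 ± 2.19 and 20.1 ± 2.50 (0.98, SE 0.16). Their relative BAM2 was higher in shoot, at 12.3 ± 1.302 FPKM against 4.94 ± 0.734 in root (log2 fold change -1.23, SE 0.13, limma adjusted p = 1.06e-05). ACR4, the receptor kinase through which CLE40 acts on the root tip, was higher in shoot (2.86 ± 0.50 and 1.22 ± 0.214 FPKM, -0.96), as was RPK2 (-0.91). CLV1, the receptor of CLV3, was called higher in shoot on the deposited scale (16.5 ± 2.84 and 11.1 ± 1.17 FPKM, -0.54, adjusted p = 0.00452) but not with library totals (-0.01, adjusted p = 0.972). CRN overlaps the abundant gene AK1 by 423 bases on the opposite strand, so its reads are uncertain. It passed without shoot library 4 (0.61, adjusted p = 0.0282) and without root library 2 (0.59, adjusted p = 0.0342), against 0.50 (adjusted p = 0.0511) in the full fit.

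HAIRY MERISTEM (HAM) proteins bind WUS and WOX proteins as partners, and TOPLESS (TPL) and its relatives TPR1 to TPR4 are corepressors. All 9 were read in every library. HAM1, TPL and TPR2 were called higher in shoot, TPR3 and TPR4 higher in root, and HAM2, HAM3, HAM4 and TPR1 did not pass. TPL was the most abundant, at 64.5 ± 7.08 FPKM in shoot against 42.4 ± 7.41 in root (log2 fold change -0.61, SE 0.13, limma adjusted p = 0.00192), and it was not called with library totals (-0.06, adjusted p = 0.748). HAM1 stood at 26.1 ± 3.22 FPKM in shoot against 14.98 ± 0.512 in root (-0.77, SE 0.10), which became -0.23 (adjusted p = 0.068) with library totals. TPR4 stood at 11.8 ± 1.40 and 17.6 ± 2.83 FPKM (0.55, SE 0.13), and TPR3 at 6.78 ± 0.333 and 10.1 ± 2.18 (0.51, SE 0.16). With library totals TPR2 changed sign without a call (0.073), while HAM2 (0.36) and HAM3 (0.45) changed sign and were called higher in root, both under the median of all genes. HAM4 (0.64, limma adjusted p = 0.00569) and TPR1 (0.70, limma adjusted p = 5.40e-04) were called there too, above that median of 0.59. On that scaling 6 of the 9 were higher in root, where 60.0% of all genes were, and 0 higher in shoot. TPR1 was called without root library 4 (0.24, adjusted p = 0.0397).

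Around WUS, STM, which passed the filter only through shoot, was called higher in shoot (log2 fold change -1.66, SE 0.15, limma adjusted p = 2.21e-06), at least 33.3-fold against a floor of 3 reads over the root libraries. Of the 8 genes of the same list that were tested, 4 were called higher in root, where 37.6% of all genes were. Every gene of this list other than STM acts in cytokinin perception and response, so these 4 had to as well. The receptor AHK4 stood at 1.54 ± 0.204 FPKM in shoot against 15.8 ± 2.17 in root (2.99, SE 0.14, adjusted p = 1.06e-08), followed by ARR5 (2.74), ARR10 (1.23) and ARR12 (0.35). ARR5, ARR6, ARR7 and ARR15 are type-A response regulators, which dampen the cytokinin response and which WUS represses in the shoot meristem. In shoot library 2 ARR5, ARR6 and ARR7 stood at 5.77, 20.5 and 42.8 FPKM, each above the other 3 shoot libraries. ARR6 and ARR7 did not pass, with log2 fold changes of 0.86 and 0.10, and neither did ARR1 (0.13), a type-B regulator, while ARR15 fell under the filter. Under library totals 6 of 9 genes of the list were called higher in root, where 60.0% of all genes were. The added genes were ARR6 (1.39, limma adjusted p = 0.00997) and ARR1 (0.67, limma adjusted p = 0.00405). Without shoot library 2, ARR6 was called higher in root (1.31, adjusted p = 0.00435), as it was without root library 1 (1.13, adjusted p = 0.0449). ARR6 overlaps another gene by 348 bases on the opposite strand.

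Genes of the leaf blade and of leaf polarity, which act with WOX1 and WOX3, were called higher in shoot in 7 of 8 cases, where 32.0% of all genes were. FIL, YAB3 and KLU passed the filter only through shoot and so had to differ, and of the other 5 genes 4 were called. With library totals 5 of the 8 were called higher in shoot, where 19.5% of all genes were, and ARF3 was called higher in root (0.71). FIL, a YABBY gene of the lower leaf side, stood at 48.1 ± 5.66 FPKM in shoot and had 0 reads in root, the same distribution as WOX1 at a higher level. YAB3, its relative, had 2306 reads in shoot and 2 in root. KLU, a cytochrome P450 gene of organ growth, stood at 4.81 ± 1.84 in shoot against 0.355 ± 0.18 FPKM in root (log2 fold change -2.60, SE 0.27, limma adjusted p = 7.64e-06). ARF2, the most abundant of the list, stood at 79.3 ± 2.75 and 41.3 ± 6.07 FPKM (-0.94), and ARF4 followed at -0.92, while ARF3 did not pass (0.20). The calls of KAN1 (-0.27) and AS2 (-0.54) were weak: KAN1 was not called without any 1 library other than shoot library 4 (adjusted p = 0.0505 to 0.0882), and AS2 was not called without shoot library 1 or 2 or root library 1, 2 or 3 (adjusted p = 0.0708 to 0.101). With library totals neither was called, and KAN1 changed sign (0.25).

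Genes of root stem cells and root founder cells, which act with WOX5 and WOX11, were called higher in root in 9 of 12 cases, where 37.6% of all genes were. PLT1, PLT2, BBM, LBD16, LBD18 and LBD29 passed the filter only through root and so had to differ, and of the other 6 genes 3 were called higher in root. With library totals 11 of the 12 were called higher in root, where 60.0% of all genes were. PLT1, a stem cell regulator of the root apex, had 0 reads in shoot and stood at 4.84, 3.66, 5.23 and 4.77 FPKM in root libraries 1 to 4, above WOX5 in each. LBD16 and LBD29, which WOX11 activates in adventitious and lateral root founder cells, stood at 5.36 ± 1.203 and 2.25 ± 0.809 FPKM in root, with 5 reads and 0 reads in shoot. CDF4, a differentiation factor that WOX5 represses in root stem cells, was also higher in root (1.26 ± 0.081 and 9.74 ± 1.22 FPKM, log2 fold change 2.54, SE 0.13, limma adjusted p = 3.18e-08). CYCD1;1 (1.84) was higher in root, and CYCD3;3 (0.09) did not pass. TAA1, an enzyme of auxin synthesis and the most abundant of the list in shoot, was the one called higher in shoot (15.9 ± 1.89 and 8.71 ± 0.577 FPKM, -0.83, SE 0.11). SCR did not pass (0.26) but was called without shoot library 3 (0.35, adjusted p = 0.0235).

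Of 7 genes of the cambium and vascular tissue, 4 were called higher in root, where 37.6% of all genes were. Under library totals 5 of the 7 were, where 60.0% of all genes were, MP being added (0.73, limma adjusted p = 0.013). TMO6, a DOF factor of vascular cells, stood at 4.77 ± 0.594 FPKM in shoot against 25.6 ± 2.26 in root (log2 fold change 2.31, SE 0.11, limma adjusted p = 1.81e-08). GA3OX1, an enzyme of gibberellin synthesis, stood at 3.42 ± 1.31 and 15.7 ± 2.98 FPKM (2.08, SE 0.22), in the same direction as WOX14. HB8 was higher in root by 0.59 (adjusted p = 0.0118), but without root libraries 1 and 2 it was not called (0.46, adjusted p = 0.102). KNAT1 (0.49, adjusted p = 0.0489) lost its call without any 1 library other than root library 4 (adjusted p = 0.054 to 0.138). BIN2, a kinase that acts between PXY and vascular differentiation, was the most abundant, at 86.6 ± 5.46 and 56.6 ± 3.0 FPKM, and was called higher in shoot (-0.61) but not with library totals (-0.06, adjusted p = 0.588). ANT (-0.09) and MP (0.23) did not pass.

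**Figure D4:**
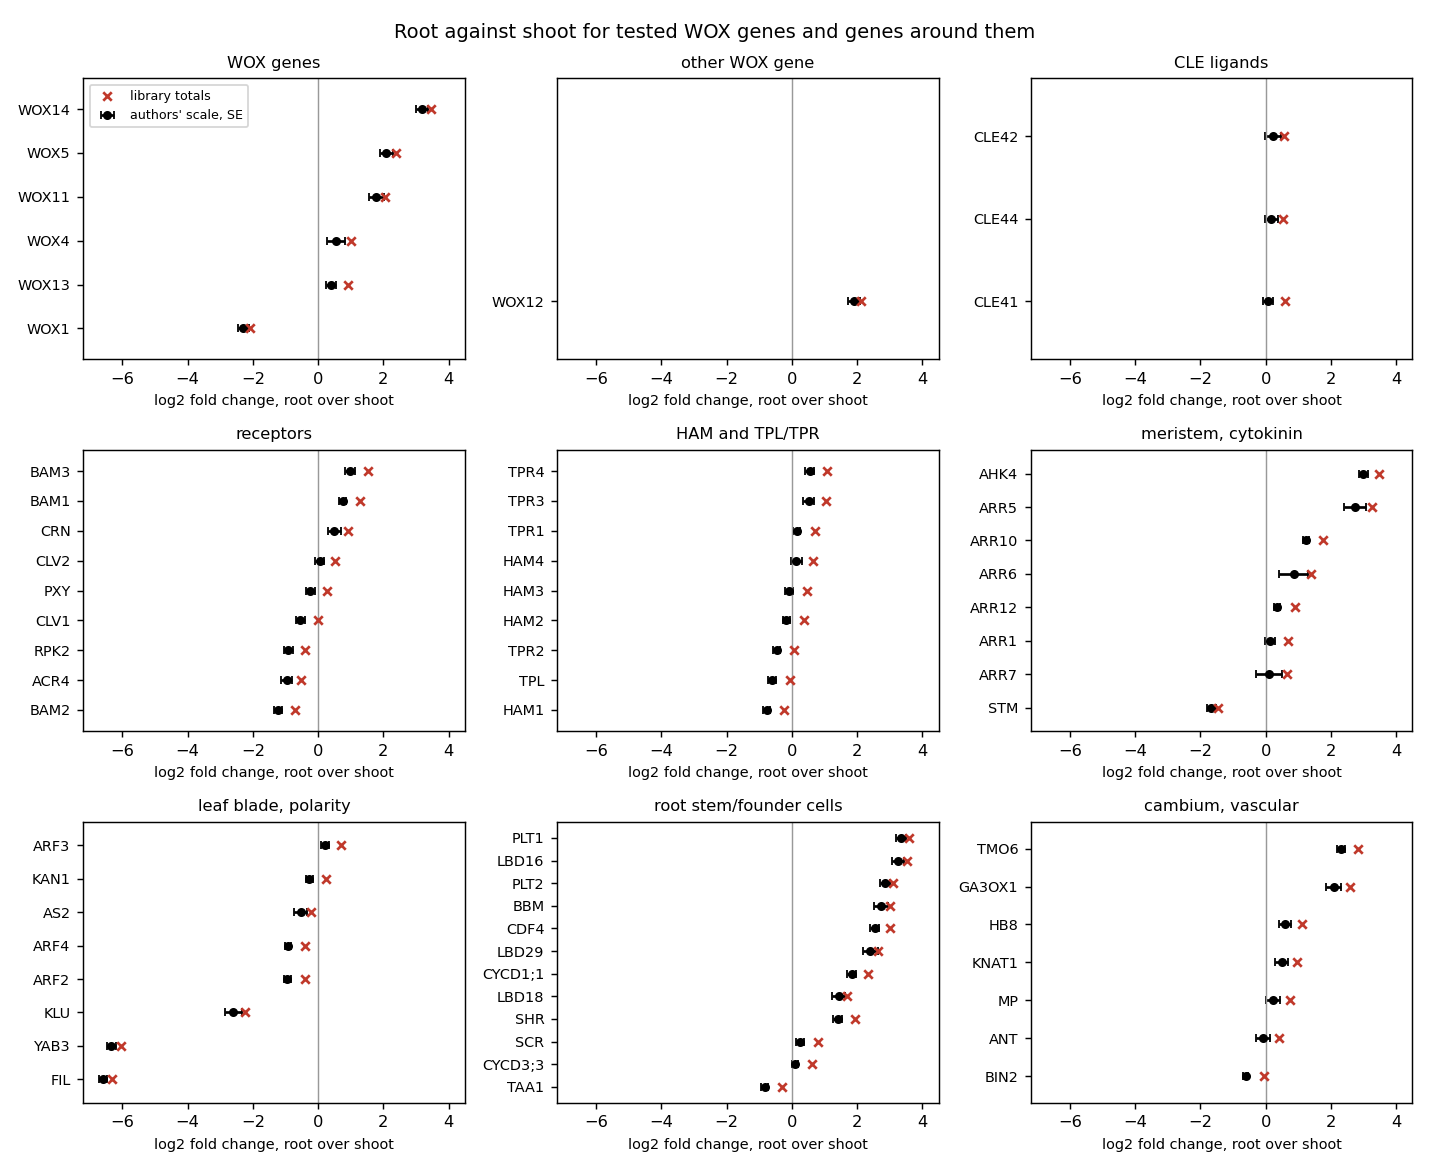
Log2 fold change of root over shoot (horizontal axis) for each tested WOX gene and each tested gene of the lists (rows). Black points with SE bars are for the deposited scale and red crosses for library totals. The crosses lie to the right of the points throughout, and WOX14, WOX5 and WOX11 lie right of 1 and WOX1 left of -2 with both.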

How the data were processed

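Shoot and root messenger RNA of Arabidopsis Col-0 (4 libraries each, grouped by the titles in the labels) had been selected with poly-T beads, per the labels' protocols. The submitters' processing notes name the build TAIR10, the aligner HISAT2 2.0.5 and the counter featureCounts 1.5.0-p3. How strand and multi-mapping reads were treated, and the annotation release, were not given in the sources used here. Although its name says counts, the table deposited by the authors holds FPKM. Multiplied by gene length, every FPKM value became a whole number of steps of 1 size in each library (to within 1.37e-09 reads), from which reads and scaled library sizes were read. The gene length is the authors' deposited column of other information.

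Root and shoot were compared by limma 3.58.1 (R 4.3.3), fitted to log2(FPKM + 0.5) with a variance trend and adjusted by Benjamini and Hochberg over 20314 genes, and single values by exact permutation with SciPy 1.17.1. All 10 members are named. From the lists, the most abundant gene, the largest called changes and those not passing are named, with every ligand, receptor and partner, and further genes were named after their values were seen. Members and lists were chosen with earlier results of these data known. Symbols are common ones, and the table lists PXY as TDR, HAM1 as SCL27, HAM2 as SCL22, HAM3 as SCL6, HAM4 as SCL15, TPR4 as WSIP2, KLU as CYP78A5, FIL as YAB1, TMO6 as DOF5.3, MP as ARF5 and BIN2 as ASK7. The test was checked on simulated data with far fewer changed genes than were called here, so that check is no support for the calls. Replicate pairs were not copies (their chi-square per gene was 6.94 to 21.0, above sampling noise). Ratios and floors of 3 reads cover counting error only. The third-helix sequence of 1 gene is not reported here. Coding sequences were the longest per gene in RefSeq's annotation, aligned with Biopython 1.88. Alternatives were other pseudocounts (0.1 and 1), filters, scalings, limma-voom on the reads, a block for the replicate number, and fits without each library in turn while keeping the genes tested.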

Additional observations from a re-analysis of the deposited data

Results flagged for a closer look

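Of 121 groups of 4 libraries with more than 3 reads in at least 1 library, 15 (12.4%) had 1 library far from the other 3 by Dixon's 95% criterion, against about 1 in 20 by chance. Among the WOX genes these were WOX2 in shoot, at 1.44 FPKM in library 1 against 0.473 to 0.548 in the others, and WOX14 in root, at 6.15 FPKM in library 3 against 4.22 to 4.55.

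Shoot library 1 was also the highest for CLE41 (8.06 FPKM against 5.88 to 6.19), CLE44 (1.41 against 0.657 to 0.747) and BBM (0.30 against 0), and the lowest for CYCD3;3 (11.1 against 12.1 to 12.2). Shoot library 2 was the highest for the type-A response regulators ARR5 (5.77 FPKM against 2.33 to 2.76), ARR6 (20.5 against 4.59 to 6.55) and ARR7 (42.8 against 12.2 to 16.2), and the lowest for KNAT1 (2.17 against 3.20 to 3.35). Shoot library 3 was the highest for HAM4 (5.65 against 4.21 to 4.44) and CYCD1;1 (4.46 against 2.84 to 3.08). Root library 4 was the lowest for BAM1 (27.1 against 30.9 to 31.4) and TPR3 (6.80 against 10.96 to 11.3), and root library 2 for KLU (0.0872 against 0.427 to 0.474).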

How the results depend on the processing

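The calls of WOX1, WOX5, WOX11 and WOX14 held in every fit run. These genes passed the filter only through the tissue in which they were high, so they had to differ and the repeated calls add no support. WOX13 lay near the threshold and was also called by limma-voom (0.42, adjusted p = 0.0469). For WOX4 limma-voom gave no call (0.66, adjusted p = 0.119). With library totals, 5 WOX genes, 35 list genes and 12221 of all genes were higher in root, and 10 list genes and 3963 of all genes higher in shoot. With no filter, 2 WOX genes were higher in shoot, WOX2 being added because it was itself tested there. With library totals HAM2 (0.36), HAM3 (0.45), TPR2 (0.073) and KAN1 (0.25) changed sign. Leaving out 1 library gave 3 to 4 WOX genes for root and 1 for shoot, 20 to 22 and 15 to 17 list genes, and 7129 to 7554 and 6084 to 6355 of all genes. Without root libraries 1 and 2, an alternative chosen after seeing the data because they hold more leaf marker transcripts, the counts were 3 and 1 WOX genes and 18 and 15 list genes, with TPR3 (0.35, adjusted p = 0.156) and TPR4 (0.38, adjusted p = 0.0583) no longer called.

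Same-numbered shoot and root libraries deviated together only weakly (correlations over genes of 0.0359, 0.0152, 0.0564 and 0.071). Shoot libraries 1, 3 and 4 each correlated best with the root library of the same number, and shoot library 2 with root library 4 (0.0238). Values this weak cannot decide whether same-numbered libraries belong together. With the replicate block, 4 WOX genes were higher in root, WOX13 being added (0.40, adjusted p = 0.0409), 1 was higher in shoot, and 22 and 15 list genes were called. Depth limits WUS, WOX3, WOX6, WOX8, WOX9 and WOX10, each with at most 5 reads over 8 libraries.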
